A study of Mus musculus with 12 samples.

Results

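The augmin complex and the gamma-tubulin machinery it recruits were followed across HL-1 cells in which Wdr62 was targeted and then supplied again. The members are 10 genes, taken by symbol from a table of 23184: the 8 augmin subunits Haus1 to Haus8, Tubg1 for gamma-tubulin, and Nedd1, its adaptor. All 10 were found, and all 10 were among the 11774 genes with a mean of at least 1 TPM (transcript abundance per length, scaled to a fixed library total) that entered the tests. They were chosen by complex membership, but selected on TPM values too: Haus1, Haus8 and Tubg1 were known to be lower in Wdr62-targeted than in control cells. For these 10 genes the comparison of targeted with control cells is therefore a description, with no p-value.

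HL-1 cells are an immortal mouse line of atrial cardiomyocyte origin, grown here in medium with foetal bovine serum. Control cells (CON) were infected with viruses packaging the empty pCDH and lentiCRISPRv2 vectors. Knockdown cells (KD) received a CRISPR guide against Wdr62, and for re-expression (RE) these KD cells were infected again, with a pCDH-WDR62-WT-flag virus. Each group had 4 libraries. All groups are therefore transduced cells, and the labels name the pCDH vector for CON and RE only. They do not say whether KD cells were a clone or a pool, or that replicates were separate cultures; the p-values below therefore reflect the spread of these libraries alone, which may be technical. In the treatment labels the number at the end of the nuclease name runs from Cas9 to Cas12 over the KD replicates and that of the expressed gene from WDR62 to WDR65 over the RE replicates, whereas the treatment protocol names WDR62 alone.

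Spindle microtubules are nucleated at centrosomes, at chromatin, and along the sides of microtubules that already exist. Augmin serves the last of these routes: it binds a microtubule wall and, through NEDD1, recruits the gamma-tubulin ring complex, from which a branch grows at a shallow angle and with the same polarity. Its subunits form a subcomplex of HAUS2, HAUS6, HAUS7 and HAUS8, which makes contact with the microtubule and with NEDD1, and a subcomplex of HAUS1, HAUS3, HAUS4 and HAUS5. WDR62 is a WD40-repeat protein of the spindle pole whose human gene is mutated in primary microcephaly.

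Promoter sequences of members from each side of the pattern described below are shown first, because Haus4 and Haus5 had lower means in KD than in control cells while Haus7 was level. RefSeq promoter entries (GRCm38.p6) existed for 7 of the 10 members. Haus1, Tubg1 and Nedd1 had no entry and could not be scanned, although Haus1 and Tubg1 had lower means in KD. The stretches run 5′ to 3′ on the strand of the gene. Haus4 is at chr14:54554362-54554611 (minus strand, bases 250 to 1 before the start), Haus5 at chr7:30664995-30665244 (minus strand, bases 250 to 1), and Haus7 at chrX:73459045-73459279 (minus strand, bases 250 to 16). RefSeq starts can differ from those of GENCODE, which gives the gene spans below: the Haus4 stretch lies inside its GENCODE span, over exons of non-coding transcripts, and the Haus8 window lies in an annotated UTR and is not shown. Capitals mark matches, on either strand, to E2F-type letters, which are TTCCCGC, the second form TTGGCGC and the remaining form TTCGCGC, or to the box spelled CCAAT.
Haus4: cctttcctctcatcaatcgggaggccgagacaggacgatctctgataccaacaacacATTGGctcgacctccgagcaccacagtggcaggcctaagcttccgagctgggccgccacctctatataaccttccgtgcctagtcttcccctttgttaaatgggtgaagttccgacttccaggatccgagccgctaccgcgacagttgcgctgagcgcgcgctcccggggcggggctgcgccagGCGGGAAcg
Haus5: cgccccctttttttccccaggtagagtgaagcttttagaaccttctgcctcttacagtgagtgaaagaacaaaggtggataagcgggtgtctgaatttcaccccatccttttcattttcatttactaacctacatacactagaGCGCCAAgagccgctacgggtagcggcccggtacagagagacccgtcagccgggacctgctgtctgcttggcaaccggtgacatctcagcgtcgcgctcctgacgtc
Haus7: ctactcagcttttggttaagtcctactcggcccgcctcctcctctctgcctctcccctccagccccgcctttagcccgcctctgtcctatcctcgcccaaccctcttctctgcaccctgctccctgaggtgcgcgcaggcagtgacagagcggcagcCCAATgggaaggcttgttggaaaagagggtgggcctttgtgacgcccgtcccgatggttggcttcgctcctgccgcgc

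Within the 250 bases before the RefSeq start, E2F-type letters were found in Haus3, Haus4, Haus5 and Haus8, and not in Haus2, Haus6 or Haus7. Of all 32851 promoter entries, 6.69% hold one of these 3 words. The CCAAT box was found in Haus3, Haus4, Haus6 and Haus7, against 33.8% of all entries. The cell cycle homology region letters (TTTGAA or TTCGAA) were found in none of the 7 members and in 17.1% of all entries. These matches describe letters in a window and are neither binding sites nor a cause of any difference.

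Depth is unknown, because each column sums to 1000000 TPM, so no counting interval is given. Between 14060 and 14733 symbols were above 0 in a library, and Spearman's rho was at least 0.939 for all pairs of libraries. Wdr62 averaged 5.99 ± 1.79 TPM in CON, 1.15 ± 0.275 in KD and 1.27 ± 0.578 in RE (SD, n = 4 each). The labels give neither the species nor the coding sequence of the re-expression construct, so it is unknown whether its RNA was counted under Wdr62. The label of cardiac muscle rests on few defining transcripts here: 6 of 18 cardiac markers averaged at least 1 TPM, among them Tnnt2 for cardiac troponin T at 20.7 ± 6.61 TPM in CON, while Actc1, Actn2 and Myl7 were listed at 0 in every library. Of the 6 tested cardiac markers, Nkx2-5 alone was called. It averaged 5.31 ± 2.18, 12.1 ± 2.24 and 18.4 ± 6.09 TPM in CON, KD and RE. It was higher in KD than in CON (1.10 ± 0.27, limma adjusted p = 0.0229), a call made in 7 of 12 fits without 1 library. It was also higher in RE than in CON (1.63 ± 0.27, limma adjusted p = 0.00309), in all 12 such fits. Markers of other cell types also differed between the groups, and the part of all these markers in the results below was not tested. The 8 endothelial markers all averaged under 1 TPM, summing to 0.349 to 1.74 TPM. The 7 leukocyte markers summed to 4.67 to 8.29 TPM in CON, 11.9 to 17.9 in KD and 14.6 to 23.3 in RE. Only 2 of the 7, Cd68 and Lyz2, averaged at least 1 TPM. Ptprc was above 0 in RE 4 alone, at 0.043 TPM, and Adgre1 was listed at 0. Lyz2 for lysozyme was higher in KD than in CON (2.17 ± 0.29, limma adjusted p = 0.000505). The 9 skeletal muscle markers summed to 363 to 656 TPM in CON, 293 to 390 in KD and 331 to 552 in RE. Most of this was Des for desmin, which averaged 420 ± 144, 325 ± 42.9 and 400 ± 99.8 TPM in CON, KD and RE. Of their 6 tested genes 4 fell in KD against CON, among them the myogenic factor Myod1, from 6.35 ± 1.73 to 0.031 ± 0.063 TPM, and 3 were lower in RE than in CON. The 12 fibroblast markers summed to 38682 to 53452 TPM in CON, 29064 to 44263 in KD and 35134 to 46320 in RE, most of it S100a4 and Vim, with Lum and Tcf21 listed at 0. Of their 9 tested genes 2 fell in KD: Dcn for decorin (-2.65 ± 0.33, limma adjusted p = 0.000304) and Col1a1 for collagen (-0.75 ± 0.19, 0.0244, lost without CON 1, CON 2, CON 3 or KD 4). Col3a1, S100a4 and Vim were lower without a call. Col1a2, Pdgfra, Pdgfrb and Postn were higher without a call, by 0.19, 0.70, 0.87 and 0.48, and the median of the 9 was -0.02. Without CON 4, RE 1 and RE 3, 1 fibroblast marker rose and 2 fell in KD, in a fit that called 1676 genes higher and 2960 lower. In RE against KD 2 fell (Col1a1 and Col1a2), and in RE against CON 4 were lower. The 6 smooth muscle markers summed to 337 to 1550 TPM with 0 calls.

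In 3 libraries (CON 4, RE 1 and RE 3) the values departed from the rest of the group, and the distance followed transcript length. In CON 4, genes whose longest transcript has 3066 to 3596 bases had a median log2(TPM + 1) that was -0.71 away from the mean of CON 1, CON 2 and CON 3. The same median was -0.34 in RE 1 and -0.64 in RE 3, measured from the mean of RE 2 and RE 4. The members with long transcripts lay further down than that: Haus2 (3154 bases) was at -2.24 in CON 4 and Nedd1 (3534 bases) at -2.04. Haus6 (6158 bases) was at -2.41, in a length class of 5036 to 6580 bases whose median was -1.28. The other 7 members, with longest transcripts of 1226 bases (Haus1) to 2187 bases (Haus5), lay between -0.53 (Haus5) and 0.07 (Haus7) in CON 4. Across the 10 members, transcript length and the difference of CON 4 had a Pearson correlation of -0.92, RE 3 one of -0.93 and RE 1 one of -0.82; these are descriptions over genes that share the same libraries. Results that rest on these 3 libraries are given with and without them. The length trend was measured in these 3 libraries alone. KD 3 was the lowest KD library for Haus2, Haus6 and Nedd1, at 9.54, 6.25 and 31.6 TPM. A length trend in KD 3 was not tested, and the fits without CON 4, RE 1 and RE 3 keep that library.

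**Figure D1:**
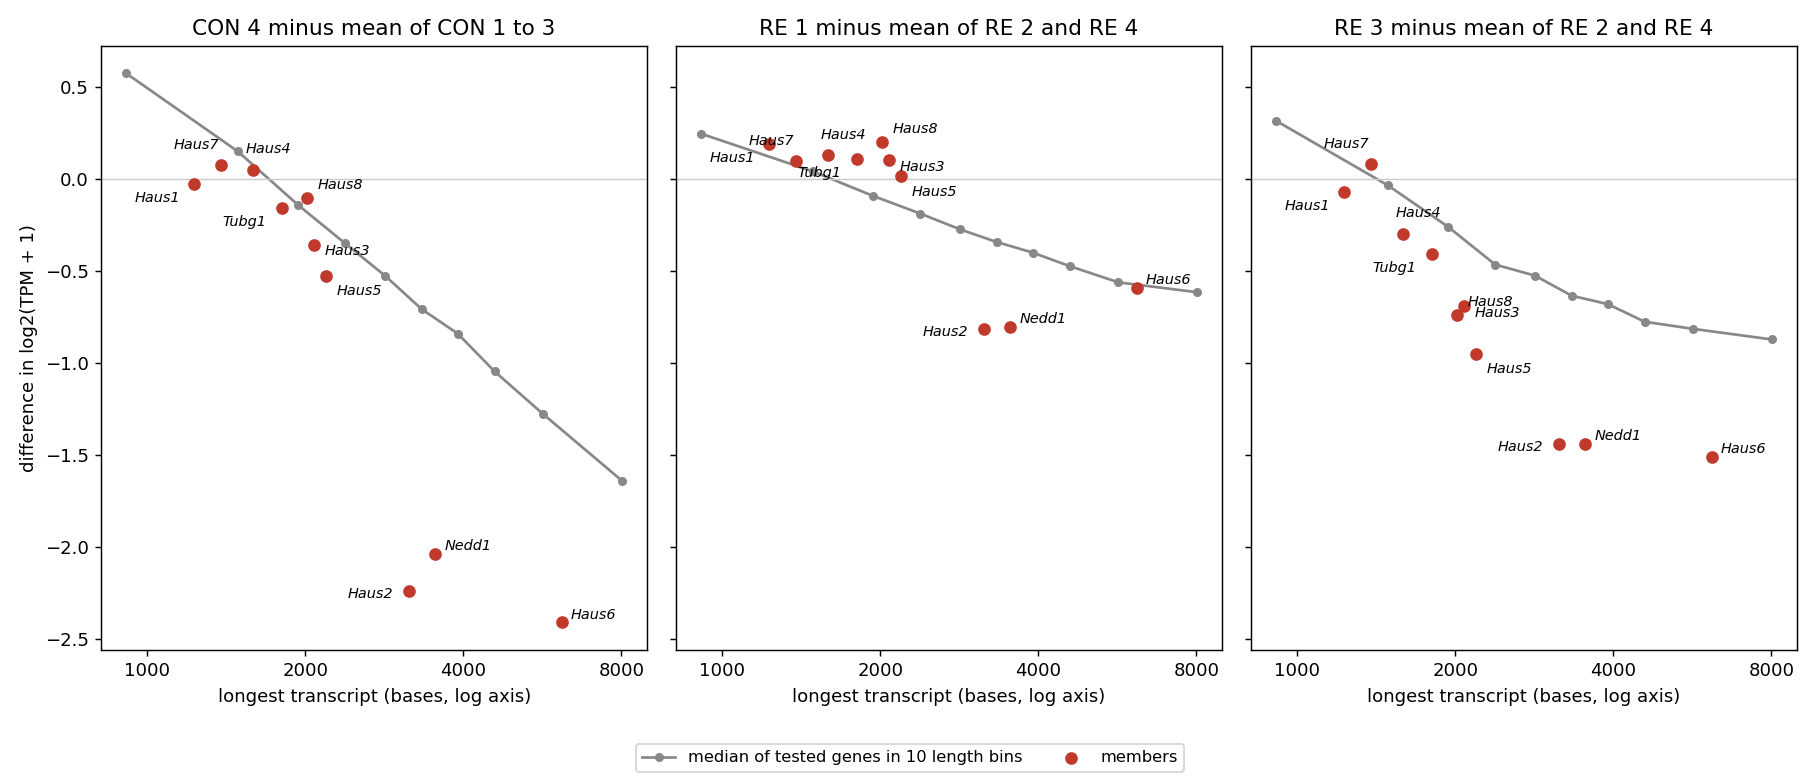
Difference in log2(TPM + 1) of CON 4 from the mean of the other CON libraries, and of RE 1 and RE 3 from the mean of RE 2 and RE 4 (vertical axis), against the longest transcript of each gene (log axis, bases). Red points are the members and the grey line joins the medians of tested genes in 10 length bins; Haus2, Haus6 and Nedd1 are the lowest members in all 3 panels, at -2.24, -2.41 and -2.04 in CON 4.

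In control cells the members covered a wide range of levels. TPM is a value per length, so genes can be compared. Tubg1 was highest at 109 ± 11.8 TPM, followed by Haus7 at 90.0 ± 2.57 TPM and Haus1 at 62.9 ± 3.51 TPM (SD, n = 4), and the CON ranges of Tubg1 and Haus7, and of Haus7 and Haus1, did not overlap. Haus1 and Haus4 (55.5 ± 3.53 TPM) overlapped in range although Haus1 was the higher in all 4 libraries. The ranges of Haus4 and Nedd1 (46.7 ± 23.8 TPM), and of Nedd1 and Haus3 (45.6 ± 8.61 TPM), also overlapped. Haus8 at 28.3 ± 2.12 TPM came next, without overlap with Haus3 above it or Haus2 below it. Haus2 (17.2 ± 9.15 TPM), Haus6 (16.9 ± 10.6 TPM) and Haus5 (16.6 ± 2.98 TPM) were lowest and overlapped, and without CON 4 they stood at 21.6, 21.5 and 18.0 TPM. In KD the order changed at the top: Haus7 exceeded Tubg1 in all 4 libraries without overlap, at 95.9 ± 11.7 against 68.9 ± 8.63 TPM.

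The 4 subunits of the subcomplex of Haus1, Haus3, Haus4 and Haus5 all had lower mean levels in KD than in CON, with RE in between. Haus1, a coiled-coil subunit encoded on chromosome 18 (77757567 to 77773886, GRCm38, minus strand), was at 67.2, 63.7, 58.9 and 61.9 TPM in the CON libraries, at 30.5, 29.0, 38.9 and 36.6 TPM in the KD libraries, and at 68.8, 51.2, 57.2 and 70.8 TPM in the RE libraries. Every KD library lay below every CON and every RE library, and CON and RE overlapped. The KD mean was 0.536 times the CON mean, a difference of -0.89 ± 0.15 (SE) on the log2(TPM + 1) scale, which is used for all differences below and understates changes of low genes.

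Haus4 (chromosome 14, 54541785 to 54554616, minus strand) was at 54.7, 59.3, 51.0 and 56.9 TPM in CON, 25.2, 23.5, 38.3 and 28.4 TPM in KD, and 51.7, 40.6, 38.2 and 54.9 TPM in RE. KD and CON did not overlap (a difference of -0.94 ± 0.18), while RE 3, the lowest RE library, met KD 3, the highest KD library. Haus3 (chromosome 5, 34153880 to 34169527, minus strand) was at 56.5, 48.4, 40.4 and 37.2 TPM in CON, 31.7, 23.4, 33.6 and 31.7 TPM in KD, and 40.3, 25.8, 22.8 and 54.3 TPM in RE. Its KD libraries lay below all CON libraries (-0.58 ± 0.26), and its RE libraries spread over the range of both other groups.

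Haus5 (chromosome 7, 30653711 to 30664994, minus strand) was at 17.7, 19.0, 17.5 and 12.2 TPM in CON, 8.02, 8.67, 12.2 and 9.73 TPM in KD, and 14.5, 11.3, 6.96 and 18.2 TPM in RE. Only KD 3 and CON 4 overlapped between KD and CON. The difference was -0.72 ± 0.27 with all libraries and -0.85 without CON 4, RE 1 and RE 3.

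**Figure D2:**
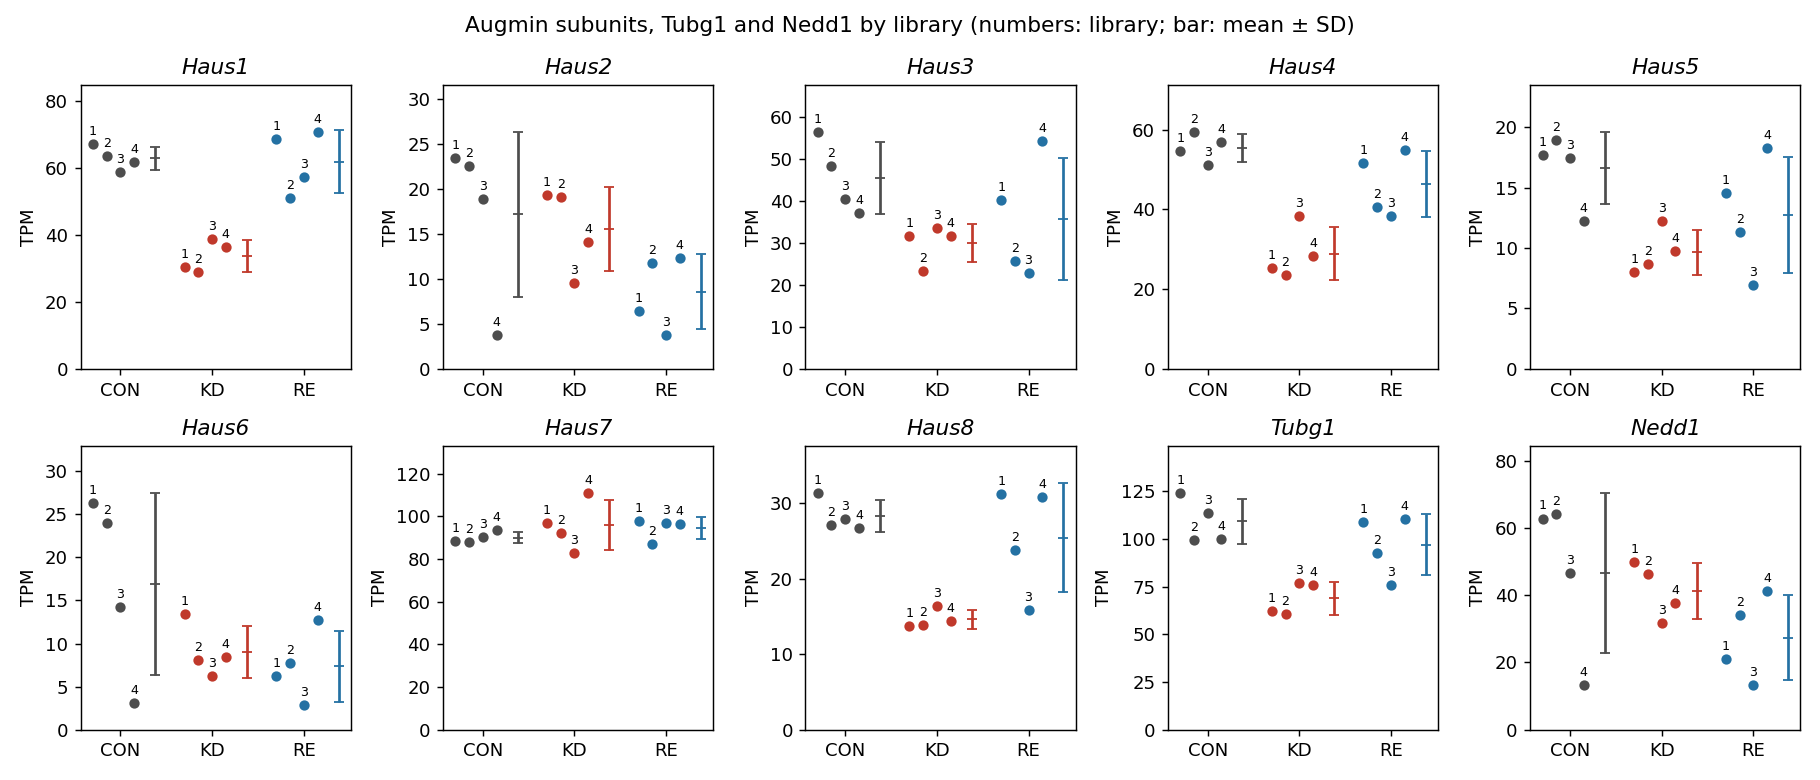
TPM of each member (vertical axes from 0) in the CON, KD and RE libraries, with the library number beside each point and the mean ± SD to the right of each group (n = 4). In the panels of Haus1, Haus3, Haus4, Haus8 and Tubg1 all KD points lie below all CON points, Haus7 is level, and Haus2, Haus6 and Nedd1 are low in CON 4 and RE 3.

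The subcomplex of Haus2, Haus6, Haus7 and Haus8 did not move as a unit. Haus8, the subunit that attaches augmin to the microtubule (chromosome 8, 71248561 to 71272934, minus strand), was at 31.4, 27.2, 27.9 and 26.7 TPM in CON, 13.7, 13.9, 16.4 and 14.4 TPM in KD, and 31.3, 23.8, 15.9 and 30.8 TPM in RE. All 4 KD libraries lay below all CON libraries, at 0.516 times the CON mean (-0.91 ± 0.20), and RE 3 alone among the RE libraries fell within the KD range.

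Haus7 (chromosome X, 73437315 to 73459044, minus strand) was at 88.3, 87.8, 90.2 and 93.5 TPM in CON, 97.1, 92.4, 82.9 and 111 TPM in KD, and 98.0, 87.1, 96.8 and 96.3 TPM in RE. The 3 groups overlapped, the highest library was 1.34 times the lowest, and the KD difference from CON was 0.08 ± 0.12. As the other subunits were lower, Haus7 made up 24.2% to 31.7% of the summed augmin TPM in CON and 34.8% to 43.6% in KD, without overlap. In RE its share was 27.5% to 39.6%. The sum of the 8 subunits was 295 to 365 TPM in CON, 218 to 254 TPM in KD and 245 to 350 TPM in RE.

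**Figure D3:**
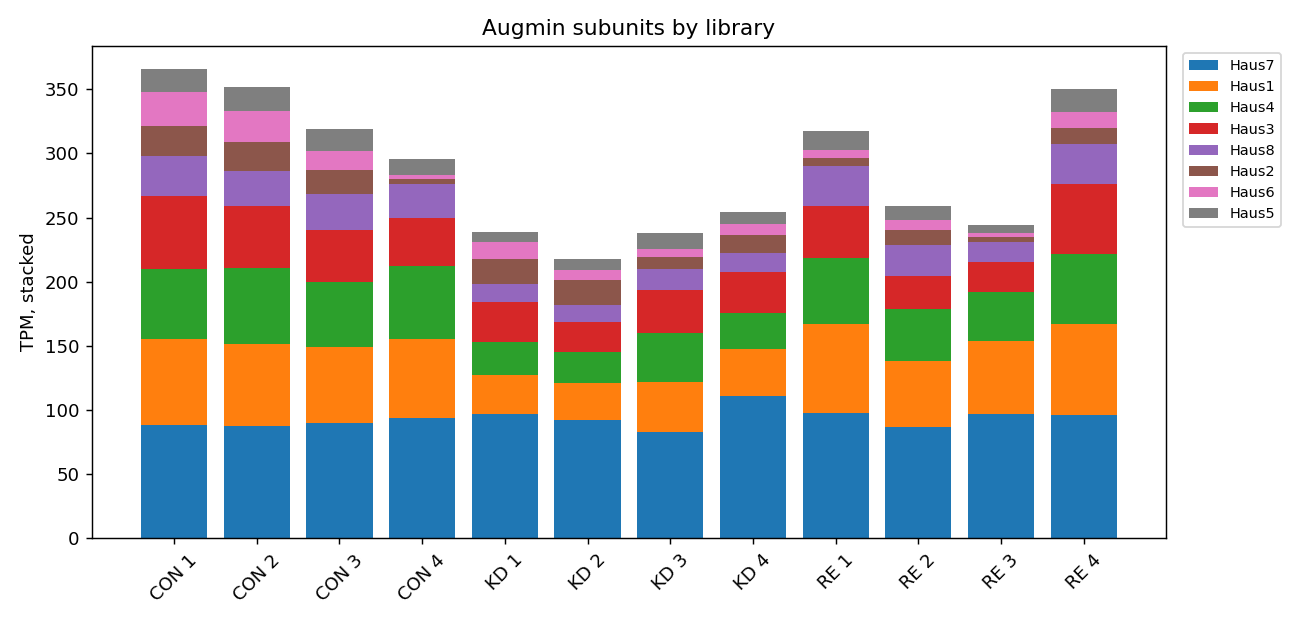
Stacked TPM of the 8 augmin subunits in each of the 12 libraries (vertical axis from 0; 1 bar per library, 1 colour per subunit). The Haus7 segment at the base is of like height in all libraries, whereas the whole bar is 218 to 254 TPM in KD and 295 to 365 TPM in CON.

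Haus6, the subunit that contacts NEDD1 (chromosome 4, 86578855 to 86612055, minus strand), was at 26.3, 24.0, 14.2 and 3.10 TPM in CON, 13.4, 8.06, 6.25 and 8.43 TPM in KD, and 6.25, 7.68, 2.84 and 12.8 TPM in RE. RE 3 and CON 4 were the lowest of the 12 libraries. The KD difference from CON was -0.56 ± 0.55 with all libraries and -1.17 without CON 4, RE 1 and RE 3, and without CON 4 no KD library reached the CON range. Haus2 (chromosome 2, 120609383 to 120621560, plus strand) was at 23.4, 22.6, 18.9 and 3.78 TPM in CON, 19.4, 19.1, 9.54 and 14.2 TPM in KD, and 6.43, 11.8, 3.81 and 12.3 TPM in RE. Its KD difference from CON was 0.06 ± 0.51, and without CON 4, RE 1 and RE 3 it was -0.50, so that its direction turned on these libraries.

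Gamma-tubulin and its adaptor are described next. Tubg1, which encodes the tubulin that caps minus ends and templates new microtubules (chromosome 11, 101119938 to 101126419, plus strand), was at 124, 99.4, 114 and 100.2 TPM in CON, 62.4, 60.6, 77.0 and 75.7 TPM in KD, and 109, 92.8, 76.0 and 110.4 TPM in RE. KD and CON did not overlap (0.630 times the CON mean, -0.66 ± 0.15), and RE 3 alone among the RE libraries was within the KD range. The paralogue Tubg2 stood at 0.035 to 0.282 TPM, so that 99.55% to 99.95% of the summed Tubg1 and Tubg2 TPM was assigned to Tubg1; how the authors split reads common to both genes is not stated.

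Nedd1, which links gamma-tubulin complexes to augmin and to centrosomes (chromosome 10, 92684746 to 92722420, minus strand), was at 62.9, 64.2, 46.5 and 13.2 TPM in CON, 49.9, 46.2, 31.6 and 37.6 TPM in KD, and 21.1, 34.2, 13.2 and 41.3 TPM in RE. CON 4 and RE 3 were at the same low level. The KD difference from CON was 0.03 ± 0.47 with all libraries and -0.48 without CON 4, RE 1 and RE 3.

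Counted in the fit across all genes, 4 of the 10 members (Haus1, Haus4, Haus8 and Tubg1) passed an adjusted p of 0.05 as lower in KD than in CON and 0 as higher. Of all tested genes, 3.61% were called lower and 6.6% higher in that comparison, 10.2% in either direction. In 5 of the 10 (these 4 and Haus3) the KD and CON values did not overlap, with KD lower, which held for 7.02% of all genes, while 11.9% were without overlap and higher. The members were proposed with this contrast known, so nothing is read from these counts, which also shift when single libraries are left out (Tubg1 was not called without CON 1, CON 3, KD 1 or KD 2).

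RE was then compared with KD to ask what changed when the WDR62 virus was added. Haus1 rose with all libraries in the fit, and it was the only member that passed the test: 1 of 10, against 0.187% of all genes called higher in this comparison, 0.858% called lower and 1.04% in either direction. The RE mean of Haus1 was 1.84 times the KD mean, a difference of 0.86 ± 0.15 (SE; limma adjusted p = 0.0300), higher in 4 of 4 RE libraries than in any KD library. Of all genes, 3.47% had all RE libraries above all KD libraries and 10.8% had them all below. Since this comparison and the previous one share the KD libraries, a low KD value moves both, and the rise is no independent sign of the first difference. Haus1, Haus8 and Tubg1 were selected with their KD values known, so the p-values of members in this comparison are not free of that selection.

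The call of Haus1 was not firm. It was made in 4 of the 12 fits that left out 1 library (without CON 4, KD 3, RE 2 or RE 3), and the adjusted p ranged from 0.0159 to 0.150, the highest without KD 2. Its adjusted p was 0.0693 without CON 4, RE 1 and RE 3 and 0.0725 when only KD and RE libraries were fitted. The difference itself stayed between 0.71 (with the length correction) and 1.18 (with median-of-ratios scaling) over the alternatives that kept all 12 libraries or the 8 of KD and RE, and between 0.79 and 0.94 over the fits without 1 library. The median gene was 0.29 lower in RE than in KD on the same scale, which both scaling alternatives and the length correction removed.

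Haus8, Haus4 and Tubg1 were higher in RE than in KD by 0.72 ± 0.20, 0.68 ± 0.18 and 0.48 ± 0.15 and did not pass the test (limma adjusted p = 0.0955, 0.0832 and 0.118). Their 95% intervals were 0.27 to 1.16, 0.29 to 1.06 and 0.15 to 0.81. At an unadjusted p below 0.05, 4 of 10 members (these 3 and Haus1) were higher and 0 lower, while 6.36% of all genes passed that threshold as higher and 21.6% as lower. As the members were selected with values of the same KD libraries known, nothing is read from this contrast. With the transcript length trend removed from each library, all 4 passed as higher in RE, with limma adjusted p of 0.0227 for Haus1, 0.0252 for Haus8, 0.0409 for Haus4 and 0.0456 for Tubg1. Without CON 4, RE 1 and RE 3, none of the 4 passed (limma adjusted p of 0.0508 to 0.132), with 2 RE libraries left; RE 2 and RE 4 were both above every KD library in these same 4 members.

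The remaining members gave no call between RE and KD. Haus3 and Haus5 differed by 0.17 (95% interval -0.39 to 0.73) and 0.31 (-0.27 to 0.89). Haus7 differed by -0.01 (-0.27 to 0.24), the narrowest interval of the 10 members. Haus2, Haus6 and Nedd1 were lower in RE, by -0.86 (-1.97 to 0.25), -0.36 (-1.56 to 0.85) and -0.68 (-1.69 to 0.34), where RE 1 and RE 3 are the libraries low in long transcripts. Without CON 4, RE 1 and RE 3 these 3 differences were -0.29, 0.17 and -0.11.

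RE was compared with CON to ask how far cells with the virus stood from control cells. None of the 10 members passed (limma, 0 calls against 6.33% of all genes called, 2.7% higher and 3.63% lower). At an unadjusted p below 0.05, 0 of 10 passed, against 28.4% of all genes, 8.22% higher and 20.2% lower. In no member were RE and CON without overlap, which 4.46% of all genes were with RE higher and 4.76% with RE lower. Haus1 differed by -0.03 with a 95% interval of -0.36 to 0.29, Haus8 by -0.19 (-0.64 to 0.25), Haus4 by -0.27 (-0.66 to 0.12) and Tubg1 by -0.18 (-0.52 to 0.15). These intervals allow a difference in either direction and do not show that RE and CON were alike. The signs of Haus1, Haus4 and Haus8 turned positive under median-of-ratios scaling and quantile normalization (0.27 and 0.19 for Haus1). Haus2, Haus6 and Nedd1 had the lowest values, at -0.79 (-1.90 to 0.32), -0.92 (-2.13 to 0.29) and -0.65 (-1.66 to 0.37). Without CON 4 these 3 passed as lower in RE, at -1.35, -1.52 and -1.16 (limma adjusted p = 0.00844, 0.00787 and 0.0120), in a fit that keeps RE 1 and RE 3. That fit called 6219 of the 11774 tested genes, 20.5% of them higher in RE. Without CON 4, RE 1 and RE 3 the limma adjusted p was 0.0482, 0.0484 and 0.0579, in a fit that called 3781 genes, 25.3% of them higher. With the length correction Haus2, Haus6 and Nedd1 were at -0.49, -0.24 and -0.29 and did not pass.

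**Figure D4:**
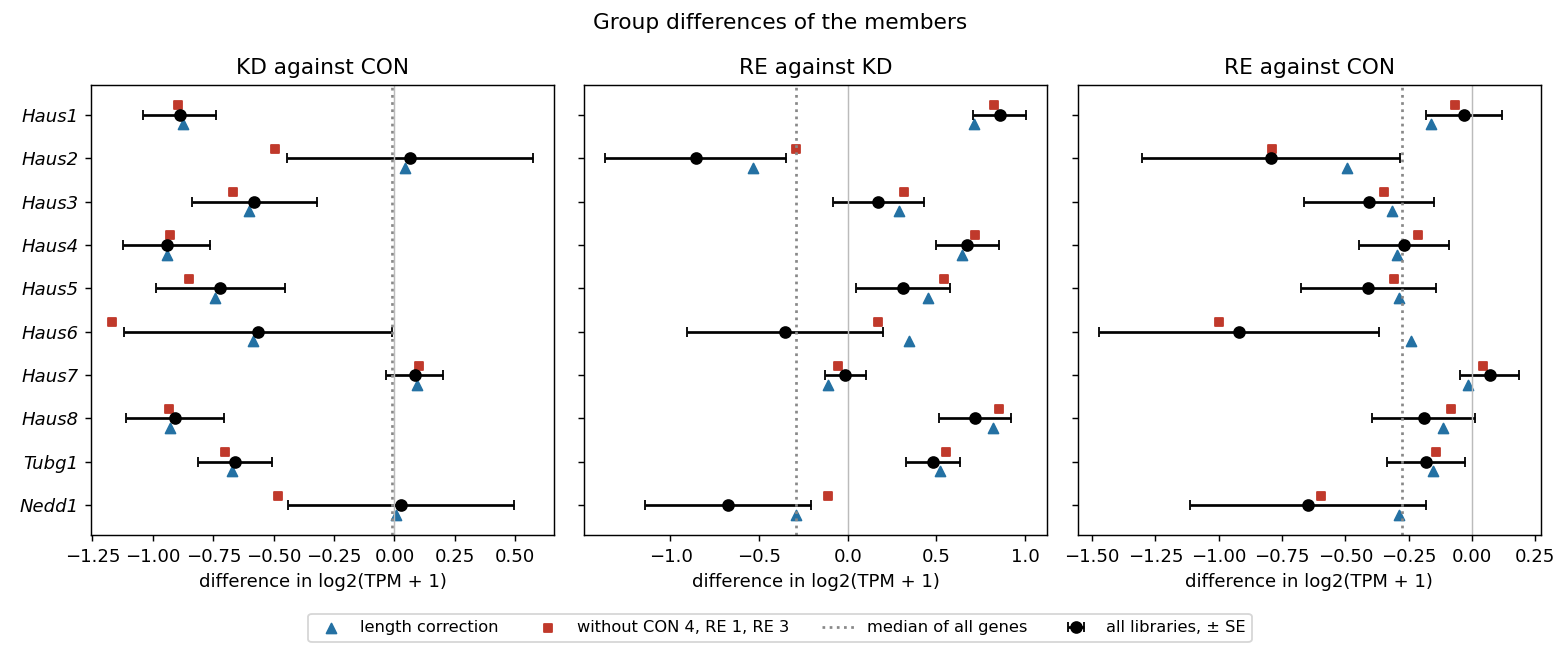
Difference in log2(TPM + 1) of each member for KD against CON, RE against KD and RE against CON (black points ± SE, all libraries), with the value after length correction (triangles), the value without CON 4, RE 1 and RE 3 (squares) and the median of all genes (dotted line). For Haus1, Haus4, Haus8 and Tubg1 the 3 kinds of value lie close together, with KD below CON and RE above KD; for Haus2, Haus6 and Nedd1 they are spread.

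Put side by side, the mean of RE lay between a lower KD mean and a higher CON mean in 6 members (Haus1, Haus3, Haus4, Haus5, Haus8 and Tubg1), below both in 3 (Haus2, Haus6 and Nedd1), and between a lower CON and a higher KD mean in Haus7. Some members varied together from library to library and others did not. After the group means were removed, the Pearson correlation over the 12 libraries was 0.99 between Haus2 and Nedd1, 0.97 between Haus6 and Nedd1 and 0.95 between Haus2 and Haus6. It was 0.87 between Haus1 and Haus4, 0.87 between Haus8 and Tubg1 and 0.89 between Haus5 and Haus8, and between -0.22 and 0.15 for Haus7 with each of the other 9. Across these sets it was 0.0014 for Haus1 with Nedd1, -0.11 for Haus1 with Haus2, -0.13 for Haus4 with Haus2 and 0.089 for Haus4 with Haus6. It reached 0.62 for Haus5 with Haus6, while Haus1 with Haus8 stood at 0.61, so the sets were not cleanly apart. These are descriptions, since the values share their libraries and the length trend. In RE, the high library for Haus3, Haus4, Haus5, Haus8, Haus1 and Tubg1 was RE 4 or RE 1, and the low library RE 3 or RE 2.

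The genes whose levels most resembled those of 3 members over the 12 libraries were named among 9628 candidates with a mean of at least 5 TPM. Closest to Haus1 were Esd for an esterase (Pearson r = 0.97), the ATP synthase gene Atp5c1 (0.97) and the kinetochore gene Ska1 (0.96). Ska1 averaged 13.0 ± 0.85 TPM in CON, 5.38 ± 2.04 in KD and 11.9 ± 3.09 in RE (SD, n = 4). Closest to Haus8 were the clamp loader gene Rfc2 (0.97), Tubg1 itself (0.96) and the nucleotide hydrolase gene Dctpp1 (0.96). Rfc2 averaged 149 ± 14.4, 91.8 ± 13.8 and 146 ± 33.4 TPM in CON, KD and RE. Closest to Tubg1 were the proteasome gene Psmd3 (0.97), the fatty acid transport gene Slc27a1 (0.97) and Fam173b (0.97). With group means removed these correlations were between 0.75 (Haus1 with Atp5c1) and 0.94 (Tubg1 with Psmd3).

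The rest of the branching and nucleation pathway, 57 genes in 5 lists of which 55 were tested, was measured for context. In KD against CON 1 of the 55 rose and 3 fell, beside the 6.6% and 3.61% of all genes given above. Ran, the GTPase that releases spindle assembly factors near chromatin, fell from 219 ± 37.5 to 123 ± 22.9 TPM (-0.83 ± 0.23, limma adjusted p = 0.0356). Tacc3, which links microtubules of kinetochore fibres, fell from 136 ± 4.07 to 87.6 ± 16.0 TPM (-0.65 ± 0.17, 0.0309). Tubb3 for a beta-tubulin fell from 9.28 ± 1.34 to 2.33 ± 1.68 TPM (-1.73 ± 0.34, 0.00619). Kansl2, a subunit of the NSL complex, rose from 74.5 ± 6.37 to 111 ± 13.5 TPM (0.56 ± 0.14, 0.0217). The calls of Ran, Tacc3 and Kansl2 were lost when any one of KD 1, KD 2, KD 4, CON 1, CON 2 and CON 3 was left out, with limma adjusted p up to 0.119, 0.109 and 0.0802, while that of Tubb3 was made in all 12 such fits. Of 8 tested ring complex genes (Tubg2 was below the filter), none was called in any comparison, and 2, 0 and 2 passed at an unadjusted p below 0.05 in KD against CON, RE against KD and RE against CON. Their medians were -0.28, -0.37 and -0.66 in that order, beside medians of -0.01, -0.29 and -0.27 over all genes. Tubgcp2, a ring complex scaffold, averaged 40.9 ± 13.4 TPM in CON, 21.4 ± 1.69 in KD and 27.9 ± 8.09 in RE.

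The remaining lists also gave few calls. Of 9 tethers and activators, 15 spindle branching and assembly factors, 12 tubulins and 11 minus-end and severing proteins, the medians in KD against CON were -0.33, -0.50, -0.38 and -0.03. In RE against KD they were -0.69, 0.00, 0.34 and -0.46, and 0 of the 55 genes passed by limma (11 at an unadjusted p below 0.05, which 28% of all genes passed in either direction). In RE against CON 1 of 55 passed, Tubb3, lower at -1.45 ± 0.34 (limma adjusted p = 0.0237), a call lost without CON 1, CON 2, CON 3 or RE 3. Tpx2, which brings augmin to microtubules during branching, averaged 138 ± 43.4 TPM in CON, 81.6 ± 3.55 in KD and 87.3 ± 33.9 in RE. The count of pathway calls in KD against CON depended on single libraries: without CON 4, RE 1 and RE 3, 5 of the 55 rose and 29 fell.

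Markers of dividing cells are given beside the members. All 16 proliferation markers had lower means in KD than in CON, with a median of -0.78; 0 passed by limma and 11 passed as lower at an unadjusted p below 0.05, which 10.2% of all genes did (13.6% passed as higher, 23.8% in either direction). In RE against KD 13 of 16 differences were positive, with a median of 0.39 and 0 calls. At an unadjusted p below 0.05, 5 passed and 0 of them as lower, beside 6.36% of all genes as higher and 21.6% as lower. In RE against CON 12 of the 16 had lower means in RE, with a median of -0.64 and 0 calls. At an unadjusted p below 0.05, 4 passed as lower, beside 20.2% of all genes as lower and 28.4% in either direction. The 10 members had a median of -0.34 in RE against CON, from -0.92 (Haus6) to 0.07 (Haus7). The summed level of the 16 proliferation markers was 1353 to 2700 TPM in CON, 1061 to 1432 in KD and 913 to 2440 in RE. Mki67 was at 136, 114, 83.5 and 36.6 TPM in CON and 37.5 to 54.4 TPM in KD, and averaged 44.1 ± 16.1 TPM in RE and 44.3 ± 7.89 TPM in KD (SD, n = 4). Without CON 4, RE 1 and RE 3, 14 of the 16 fell in KD, in the fit that called 2960 of all tested genes lower. The part of these markers in the augmin values was not tested, and in bulk RNA fewer dividing cells and less RNA per cell cannot be told apart.

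Some members overlap other genes, and no source used here states whether counting used strand. Haus1 shares 129 exonic bases (10.0% of its exonic bases) with Atp5a1, an ATP synthase gene on the opposite strand with a mean of 639 TPM against 52.9 TPM for Haus1. Haus8 shares 116 exonic bases (5.8%) with Myo9b (22.8 TPM) on the opposite strand, and Haus2 138 (4.3%) with Lrrc57 (20.4 TPM). Haus5 shares 81.8% of its exonic bases with the same-strand transcript Gm21982, and Haus3 shares 108 exonic bases (5.2%) with Poln (0.05 TPM) on the same strand. Nedd1 shares 242 (6.8%) with the same-strand transcript Gm49783. Haus4, Haus7 and Tubg1 overlap no annotated gene.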

How the data were processed

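RNA from 12 HL-1 libraries (4 CON, 4 KD, 4 RE) was sequenced. The authors deposited 1 table of TPM values (length-scaled transcript abundance) for 23184 symbols, 6088 of them at 0 in every library; each column sums to 1000000, so depth is unknown and no counting precision can be given. Trim Galore 0.6.6, TopHat2 2.1.1, Cufflinks 2.2.1 and mm10 are named in the submitters' processing notes; how they gave TPM, and whether strand was used, the sources used here do not state. The control columns are named WT and were taken as CON, which carries that genotype in the labels; their numbers are only names.

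The 11774 genes averaging at least 1 TPM were tested on log2(TPM + 1) with limma 3.58.1 (R 4.3.3; 1 mean per group over all 12 libraries, mean-variance trend, two-sided), with Benjamini-Hochberg adjustment over all tested genes and a threshold of 0.05. The script was tested on simulated data. Positions, overlaps and lengths (longest basic transcript, known for 96.3% of tested genes) come from GENCODE vM21 (GRCm38), promoters from RefSeq. The length correction subtracts a loess trend (span 0.5) on log2 length from each library. Other alternatives were a pseudocount of 0.1, no filter, a filter of 5 TPM, 2 scalings, the compared groups alone, robust moderation, array weights, a replicate block and leaving out libraries.

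Named genes are the members, Wdr62, up to 4 called genes per pathway list, the 3 nearest patterns of Haus1, Haus8 and Tubg1, overlapping genes and Mki67; Tnnt2, Tubg2, Tubgcp2, Tpx2, Lyz2, Myod1, Dcn, Col1a1, S100a4 and Vim were added after their values were seen, as were genes listed at 0. Members, lists and tests were chosen with earlier results of these data known.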

Additional observations from a re-analysis of the deposited data

Results flagged for a closer look

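Each member was checked in each group of 4 libraries for a library whose gap to its nearest neighbour exceeded Dixon's 95% critical share of the group's range. Of the 30 checks 1 passed, and chance alone gives about 1 in 20. It was Haus7 in RE, where RE 2 stood at 87.1 TPM against 96.3 to 98.0 TPM in the other RE libraries, a gap of 0.839 of the range. The RE 2 value lies within the KD range of Haus7 and below the CON range, whose lowest library was at 87.8 TPM. Without RE 2 the difference of RE from KD was 0.03 in place of -0.01, both without a call.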

How the results depend on the processing

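Depth is unknown, so its effect on low members could not be assessed, and 4 libraries a group limit every interval. Counts of called members changed with the libraries kept, with array weights and with the scaling or length correction. For KD against CON, 4 members, 4 of the 55 pathway genes outside them and 1202 genes in all were called. Without CON 4, RE 1 and RE 3 these counts were 7, 34 and 4636, with array weights 7, 39 and 6433, with the length correction 17 pathway genes and 2595 genes, with quantile normalization 14 and 1904, and with median-of-ratios scaling 8 pathway genes. Leaving out 1 library gave 3 to 5 members, 1 to 14 pathway genes (14 without CON 4) and 744 (without KD 2) to 2412 genes (without CON 4). For RE against KD, 1 member, 0 pathway genes and 123 genes were called. The counts were 2, 1 and 78 with median-of-ratios scaling, 4, 1 and 218 with the length correction, 0, 1 and 50 without CON 4, RE 1 and RE 3, and 6, 28 and 5305 with array weights. Quantile normalization gave 2 members, and the 2 groups alone gave 0 members and 49 genes. Leaving out 1 library gave 0 to 4 members and 0 to 10 pathway genes (4 and 10 without CON 4), and 13 (without KD 2) to 2791 genes (without CON 4). For RE against CON, 0 members, 1 pathway gene and 745 genes were called. The counts were 2, 28 and 3781 without CON 4, RE 1 and RE 3, 3, 38 and 6386 with array weights, 4 pathway genes and 1521 genes with the length correction, 3 and 1178 with quantile normalization, 0 and 452 with a filter of 5 TPM, 2 pathway genes with no filter and 2 with median-of-ratios scaling, and 409 genes with the 2 groups alone. Leaving out 1 library gave 0 to 3 members, 0 to 37 pathway genes and 417 (without CON 3) to 6219 genes (3, 37 and 6219 without CON 4). The cause of these shifts was not tested.

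Of all calls, 17.9% were higher in RE than in KD, against 41% with median-of-ratios scaling, 40.9% with quantile normalization and 47.2% with the length correction. For RE against CON the share was 42.7%, against 54%, 57% and 58.6% in the same order, and for KD against CON 64.6%, against 56%, 56% and 54%. Without CON 4, RE 1 and RE 3 the shares were 36.2%, 32% and 25.3% (KD against CON, RE against KD, RE against CON), with array weights 40.6%, 25.7% and 22.6%, and without CON 4 alone 46.3%, 16.2% and 20.5%, so that for KD against CON most calls were then lower. In KD against CON, Haus2 went from 0.06 to -0.50 without CON 4 and -0.27 with array weights, and Nedd1 from 0.03 to -0.48, -0.37 and, with quantile normalization, -0.0058. Between RE and KD, Haus6 was at 0.081 with quantile normalization, 0.34 with the length correction and 0.17 without CON 4, RE 1 and RE 3. Haus7 was at 0.32 with median-of-ratios scaling, 0.11 with quantile normalization, 0.059 without KD 4 and 0.025 without RE 2 (-0.080 to 0.059 over all fits without 1 library), and Haus3 at -0.051 without RE 4 (-0.051 to 0.35). Between RE and CON, with median-of-ratios scaling, Haus1 was at 0.27, Haus4 at 0.033, Haus8 at 0.10 and Tubg1 at 0.12. With quantile normalization Haus1 was at 0.19, Haus4 at 0.00058, Haus5 at 0.015 and Haus8 at 0.17, and with the length correction Haus7 was at -0.017. Haus1 was at 0.054 without RE 2 and 0.0016 without RE 3 (-0.099 to 0.054), and Haus8 at 0.010 without RE 3 (-0.30 to 0.010).

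KD and RE share replicate numbers, but libraries of the same number did not all deviate together (correlations of -0.55, 0.65, 0.24 and -0.25 for numbers 1 to 4). KD 2 and RE 2 correlated best with each other, whereas not every library correlated best with its own number. With the replicate block, 1 member, 5 pathway genes and 2021 genes were called between RE and KD. With the replicate block and the length correction together the counts were 0, 0 and 9, Haus6 was at 0.34, and Haus1 had a limma adjusted p of 0.0929.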
